A study of Pinctada imbricata with 5 samples.

Results

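Calcium sensors, a calcium-binding chaperone and alkaline phosphatase were followed in pearl oysters, in the sac that forms the pearl, from day 10 to day 60 after implantation. The set holds 8 unigenes, that is assembled transcripts, of 19415 listed in the deposited tables. They were taken by their best protein match in the nr database: 3 unigenes matching calmodulin, and 1 each matching calcineurin B, calreticulin, a neuronal calcium sensor, calcium homeostasis endoplasmic reticulum protein and alkaline phosphatase. The set does not hold every unigene with such a match. It holds 3 of 6 named calmodulin, 1 of 4 named neuronal calcium sensor and 1 of 2 named alkaline phosphatase. The pearl sac is the epithelial pouch that forms around an implanted nucleus and secretes the pearl. Pearl sac tissue of oysters aged 1.5 years was collected on days 10, 15, 20, 30 and 60 after the operation, with 1 library for each day. The species is labelled Pinctada imbricata for the samples and Pinctada martensii in the series title, no allele or agent other than the implantation is named, and how many oysters entered a library is not stated.

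Calcium ions act as a signal when proteins such as calmodulin bind them and change shape. Calmodulin then switches on other proteins, among them the phosphatase calcineurin, whose B subunit also binds calcium. In the endoplasmic reticulum calreticulin binds calcium and helps new glycoproteins to fold. Tissues that lay down calcium carbonate or calcium phosphate also move large amounts of calcium and phosphate, and alkaline phosphatase, which releases phosphate from organic molecules, is widely used as a marker of mineralizing cells.

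Each library was a profile of short tags of 21 bases that start at a CATG site of a transcript. These tags carry all values below, and the tags of the 8 unigenes are shown because the differences between days rest on them, and for some unigenes on which tag was counted. They are copied from the deposited tables, 5′ to 3′. Capitals mark the CATG site and, in the most counted tag of a site, any base at which tags of that site differ. In the other tags of a site they mark the bases that differ from the most counted tag.
Calmodulin, Unigene91212, 3′-most site: CATGatgaccgccaaatgaca
Calmodulin, Unigene91212, next site: CATGacaaatttgggtgaaaa
Calmodulin 2-like, Unigene91150, tag 1: CATGttggcGaagaaacagga
Calmodulin 2-like, Unigene91150, tag 2: CATGttggcTaagaaacagga
Calmodulin, Unigene10986, tag 1: CATGatcaatgaagtggatgC
Calmodulin, Unigene10986, tag 2: CATGatcaatgaagtggatgT
Neuronal calcium sensor, Unigene13560: CATGtatatctctgtcatata
Calcineurin B, Unigene90071, tag 1: CATGacattttTaaaatttca
Calcineurin B, Unigene90071, tag 2: CATGacattttAaaaatttca
Calreticulin, Unigene90482: CATGtcatcttcaactacaaa
Calcium homeostasis endoplasmic reticulum protein, Unigene68223: CATGaaagacctagggacagt
Alkaline phosphatase, Unigene7396, tag 1: CATGgattCtgAtgaaatgga
Alkaline phosphatase, Unigene7396, tag 2: CATGgattctgTtgaaatgga
Alkaline phosphatase, Unigene7396, tag 3: CATGgattTtgTtgaaatgga
The 8 unigenes had 16 tag sequences in all, of which 14 are printed. Those left out are a site 2 tag of calcineurin B and a site 3 tag of calcium homeostasis endoplasmic reticulum protein, with 4 and 3 copies over the 5 libraries. Every tag in the deposited tables belongs to 1 unigene, so this holds for the 16 as well. No listed tag of another unigene lay within 1 mismatch of any of them. Tags that were not listed could not be searched. Tags of different members differed at 9 or more bases.

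The libraries held between 4700927 and 4784093 tags in all, of which 600848 to 1339346 were assigned to listed unigenes. Levels are given as scaled TPM, which is the deposited TPM, a share of the library total, divided by a scaling factor for each library (0.886 to 1.16). They are not corrected for transcript length, so levels are compared between days and not between genes. A tag needed 2 copies to be listed, so a unigene that is not listed may still have had single tags. With 1 library per day there was no measure of the spread between oysters or preparations and no test between days. A difference is called higher or lower here when the higher library had at least 10 scaled TPM, which is 41.7 to 55.4 tags, and the whole exact 95% interval of the ratio lay beyond 2-fold. These intervals cover counting error of the 2 libraries only. Fewer cells of a type and less RNA per cell cannot be told apart in such samples.

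**Figure D1:**
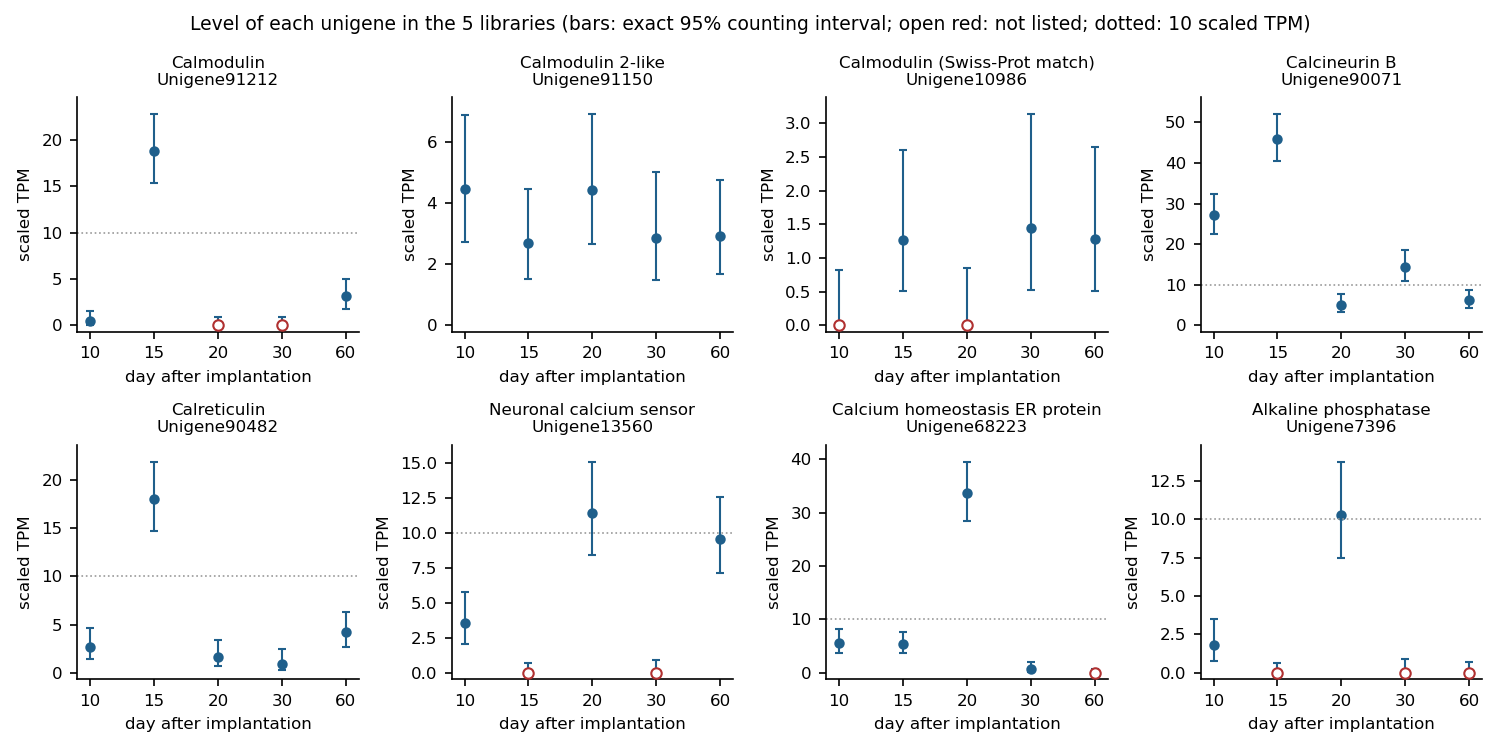
Level of each of the 8 unigenes (scaled TPM, own axis in each panel) by day after implantation, 1 library per day, with exact 95% counting intervals and open red circles where the unigene was not listed. Calmodulin Unigene91212, calcineurin B and calreticulin were highest on day 15, and the calcium homeostasis protein and alkaline phosphatase on day 20.

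Among the calcium sensors, the calmodulin match Unigene91212 was concentrated on day 15. Tags numbered 2 on day 10 and 104 on day 15, were not listed on days 20 and 30, and numbered 17 on day 60. Its level on day 15 was 18.8 scaled TPM (95% counting interval 15.3 to 22.7). The day 15 level was 42.0-fold that of day 10 (11.4 to 352) and 5.99-fold that of day 60 (3.57 to 10.7). It was at least 26.8-fold that of day 20 and at least 26.0-fold that of day 30, with 3 tags taken as a floor for a unigene that was not listed. The call was thus made against each of the other 4 days. Day 60 came next in the order, with a ratio to day 10 of 7.02 (1.67 to 62.6), at levels too low for a call.

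The other 2 calmodulin matches of the set were low in every library and never reached 10 scaled TPM. Calmodulin 2-like (Unigene91150) was listed on all days with 20, 15, 19, 12 and 16 tags in order of day, or 2.71 to 4.46 scaled TPM. For none of the neighbouring days in the order of its levels did the interval of the ratio exclude 1, and the largest ratio between any pair of days that included its highest library was 1.65 (0.803 to 3.46), for day 10 over day 15. Unigene10986, whose best match is a calmodulin entry with an e-value of 1.24e-71, had 7, 6 and 7 tags on days 15, 30 and 60 and was not listed on days 10 and 20. Its levels where listed were 1.26 to 1.44 scaled TPM, and day 30 was at least 2.15-fold day 10 and at least 2.06-fold day 20 against the floor of 3 tags, under the minimum for a call.

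The neuronal calcium sensor match (Unigene13560), of a family that in vertebrates regulates exocytosis and ion channels in neurons, alternated between listed and not listed. It was listed with 16, 49 and 52 tags on days 10, 20 and 60 and was not listed on days 15 and 30. Day 20 was at least 21.1-fold higher than day 15, and day 30 at least 15.9-fold lower than day 20, both past the rule. Day 60 against day 30 gave at least 13.3-fold but was not called, because 52 tags on day 60 were 9.57 scaled TPM, just under the minimum. Days 20 and 60 did not differ beyond counting error (ratio of day 20 to day 60 1.19, 0.792 to 1.80), and day 60 over day 10 was 2.68 (1.51 to 5.03). The match is to a blood fluke protein with an e-value of only 1.33e-16, and the files give the unigene no gene ontology term. Another unigene with the same best match and a much lower e-value of 1.86e-67 (Unigene89833) had 6 tags on day 30, 8 on day 60 and none before.

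Calcineurin B (Unigene90071), the regulatory subunit of the calmodulin-dependent phosphatase, was the most highly counted member. In order of day it had 122, 255, 22, 60 and 34 tags, or 27.2, 46.0, 5.13, 14.4 and 6.26 scaled TPM. In the order of these levels days 15, 10, 30 and 60 each differed from the next beyond counting error, with ratios of 1.69 (1.36 to 2.11), 1.89 (1.38 to 2.62) and 2.30 (1.49 to 3.62). Days 60 and 20 did not (1.22, 0.693 to 2.19). By the rule it was 8.96-fold lower on day 20 than on day 15 (5.79 to 14.6) and 4.35-fold lower on day 60 than on day 10 (2.95 to 6.56). The differences of day 15 from day 10, day 30 from day 20 and day 60 from day 30 did not pass it. The catalytic partner, calcineurin A (Unigene89910), had 2 tags on day 30 and was not listed in the other libraries, so that the subunits could not be compared.

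In the endoplasmic reticulum, calreticulin (Unigene90482) had 12, 100, 7, 4 and 23 tags in order of day. As with calmodulin Unigene91212, its day 15 level met the rule against each of the other 4 days. It was 6.74-fold higher on day 15 than on day 10 (3.69 to 13.5), and day 15 exceeded days 20, 30 and 60 by 11.0-fold (5.17 to 28.2), 18.8-fold (7.11 to 70.3) and 4.26-fold (2.69 to 7.03). Days 60, 10, 20 and 30 followed, and no neighbours in that order differed beyond counting error. Days 60 and 30, at its ends, did (ratio 4.41, 1.51 to 17.5), at levels too low for a call. All calreticulin tags came from the same site and had the same sequence.

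Calcium homeostasis endoplasmic reticulum protein (Unigene68223), which in mammals binds RNA and affects calcium release from stores, peaked later. Its counts were 25, 30, 144 and 3 tags on days 10, 15, 20 and 30, and it was not listed on day 60. On day 20 it stood at 33.6 scaled TPM (28.3 to 39.6), 6.21-fold higher than on day 15 (4.17 to 9.54). Day 30 was 46.7-fold lower than day 20 (15.6 to 229). The day 20 level met the rule against every other day and was at least 60.8-fold that of day 60. Its ontology terms in the files include RNA binding and cellular calcium ion homeostasis, but not calcium ion binding, a term that 5 of the 8 members carry.

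Alkaline phosphatase (Unigene7396) was listed on days 10 and 20 only, with 8 tags on day 10 and 44 on day 20. The day 20 level of 10.3 scaled TPM (7.46 to 13.8) lay just over the minimum. It was at least 19.0-fold higher than on day 15, at least 14.3-fold and 18.6-fold that of days 30 and 60, and 5.75-fold that of day 10 (2.68 to 14.1). When levels were scaled by the total tags alone it was 9.20 TPM on day 20, under the minimum, and no call was made. The protein match, to alkaline phosphatase of Pinctada fucata, had an e-value of 4.06e-123. A further unigene with this match (Unigene32477) had 2 tags on day 15 and none elsewhere.

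**Figure D2:**
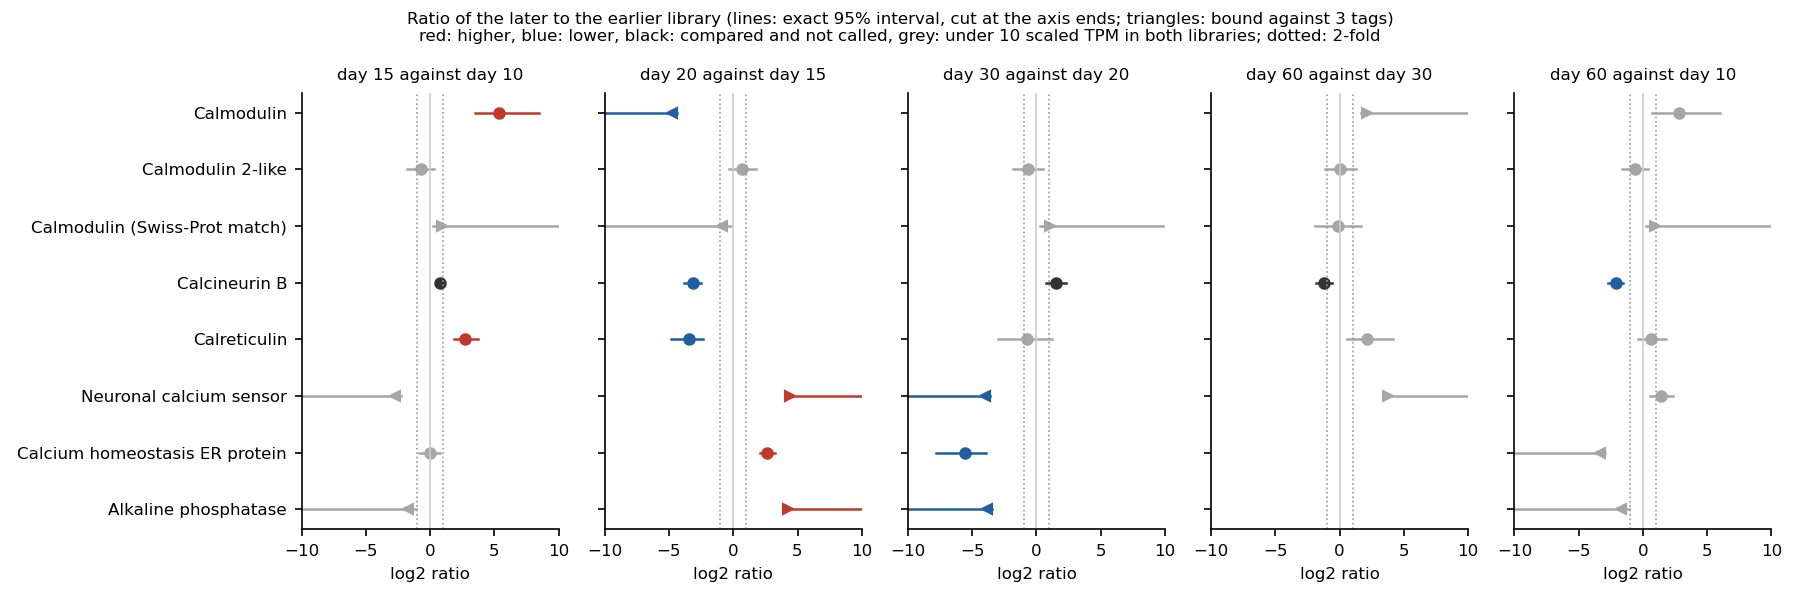
Log2 ratio of the later to the earlier library for the 8 unigenes in the 5 comparisons, with exact 95% intervals (lines) and bounds against 3 tags (triangles). In the comparison of day 20 with day 15 calmodulin Unigene91212, calcineurin B and calreticulin were lower and the calcium sensor, the calcium homeostasis protein and alkaline phosphatase higher.

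Counted over the members, day 20 against day 15 was the comparison with the most calls. There 3 members were higher and 3 lower, and the other 2, calmodulins Unigene91150 and Unigene10986, were under the minimum level. Of all 1636 unigenes compared between these days 52.4% were called, 25.6% higher and 26.8% lower, so calls were frequent in general. In day 15 against day 10, calmodulin Unigene91212 and calreticulin were higher, none was lower, calcineurin B was compared and not called, and 5 members were under the minimum, against 44.3% of all unigenes called (20.3% higher and 24% lower). In day 30 against day 20 the neuronal calcium sensor, the calcium homeostasis protein and alkaline phosphatase were lower and none was higher, with 38.7% of all unigenes called (19.8% higher, 18.9% lower). With 1.5-fold in place of 2-fold calcineurin B was called there too, higher on day 30 (2.81-fold, 1.70 to 4.80), which makes 4 members. At 1.5-fold 371 of the 1534 unigenes compared between these days were higher and 410 lower. In day 60 against day 30 only calcineurin B could be compared and it was not called (30.9% of all called, 15.7% higher and 15.2% lower). It was also the only member compared in day 60 against day 10, where it was lower (33.5% of all called, 14.5% higher and 19% lower). With a minimum of 1 in place of 10 scaled TPM the neuronal calcium sensor and alkaline phosphatase were also lower in day 15 against day 10, so that 4 members were called, where 25.2% of all unigenes were (11% higher, 14.2% lower). No member was added in day 20 against day 15 (27.7% of all, 13.3% higher and 14.3% lower) or in day 30 against day 20 (21.3%, with 12% higher and 9.28% lower). In day 60 against day 30 calmodulin Unigene91212 and the neuronal calcium sensor were then higher (17.4% of all, 7.72% higher and 9.64% lower). In day 60 against day 10 the calcium homeostasis protein and alkaline phosphatase, both not listed on day 60, were added to calcineurin B as lower (20.2% of all, 7.95% higher and 12.2% lower). These comparisons share libraries, so a high day 15 or day 20 value enters more than 1 of them. Over all 8 members, with counts under 3 set at 3, the median log2 ratio was 0.36 in day 15 against day 10, -0.07 in day 20 against day 15, -0.69 in day 30 against day 20, -0.06 in day 60 against day 30 and 0.03 in day 60 against day 10. Over all unigenes of 1 scaled TPM or more, a filter that was not put on the members, the medians were 0.06, -0.21, -0.07, 0.09 and -0.04.

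The level of a unigene is a sum over its tags, and 6 of the 8 members had a tag sequence that was listed in some of their libraries and not in others. For calmodulin Unigene91212, 102 of the 104 tags on day 15 came from the next site and 2 from the 3′-most site, which is a share of 1.92% at the 3′-most site (exact 95% interval 0.234 to 6.77). On day 60 the 3′-most site gave 8 of 17 tags, or 47.1% (23.0 to 72.2). Both day 10 tags came from the next site. In the libraries as a whole 83.2% to 87.6% of tags lay at the 3′-most site, without the most abundant unigene. Of 1692 unigenes with at least 17 tags on both days, 151 (8.92%) had intervals of this share that did not overlap between day 60 and day 15. Counted at the 3′-most site only, this calmodulin had 0, 2, 0, 0 and 8 tags in order of day and no call could be made.

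Calcineurin B carried a pair of tags at its 3′-most site that differ by T12A, counted from 1 at the first base of CATG. The tag with A was 50 of 120 tags on day 10, a share of 41.7% (32.7 to 51.0), and 23 of 58 on day 30, a share of 39.7% (27.0 to 53.4). It was not listed on days 15, 20 and 60, among 255, 22 and 34 tags, which allows shares of up to 1.18%, 13.6% and 8.82% when 3 tags are taken as the limit of a count of 0, and up to 1.44%, 15.4% and 10.3% by the exact 95% interval. Counting the commoner tag alone, calcineurin B on day 15 was 2.95-fold day 10 and passed the rule, and on day 60 it was 0.401-fold day 10 and no longer passed it. Both calls against day 10 therefore changed with the tags counted.

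Calmodulin 2-like showed the reverse pattern of days. Its tag with T at the variable base (G10T) made up 7 of 15 tags on day 15, 13 of 19 on day 20 and 11 of 16 on day 60, which are shares of 46.7%, 68.4% and 68.8% with intervals between 21.3% and 89.0%. It was not listed among 20 tags on day 10 and 12 on day 30, for which the exact 95% interval reaches 16.8% and 26.5%. The summed level of calmodulin 2-like showed no difference beyond counting error between these days, although the tag that carried it did change. Unigene10986 had its second tag (C21T) on day 60 alone, with 2 of 7 tags.

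Alkaline phosphatase had no tag sequence in common between its 2 listed days. All 44 tags of day 20 had the first sequence, and the 8 tags of day 10 were split evenly, 4 and 4, between a sequence with A12T and one with C9T and A12T. With 0 of 44, the exact 95% interval for each day 10 sequence reaches 8.04% of the day 20 tags. With the first sequence alone the day 10 count is 0.

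**Figure D3:**
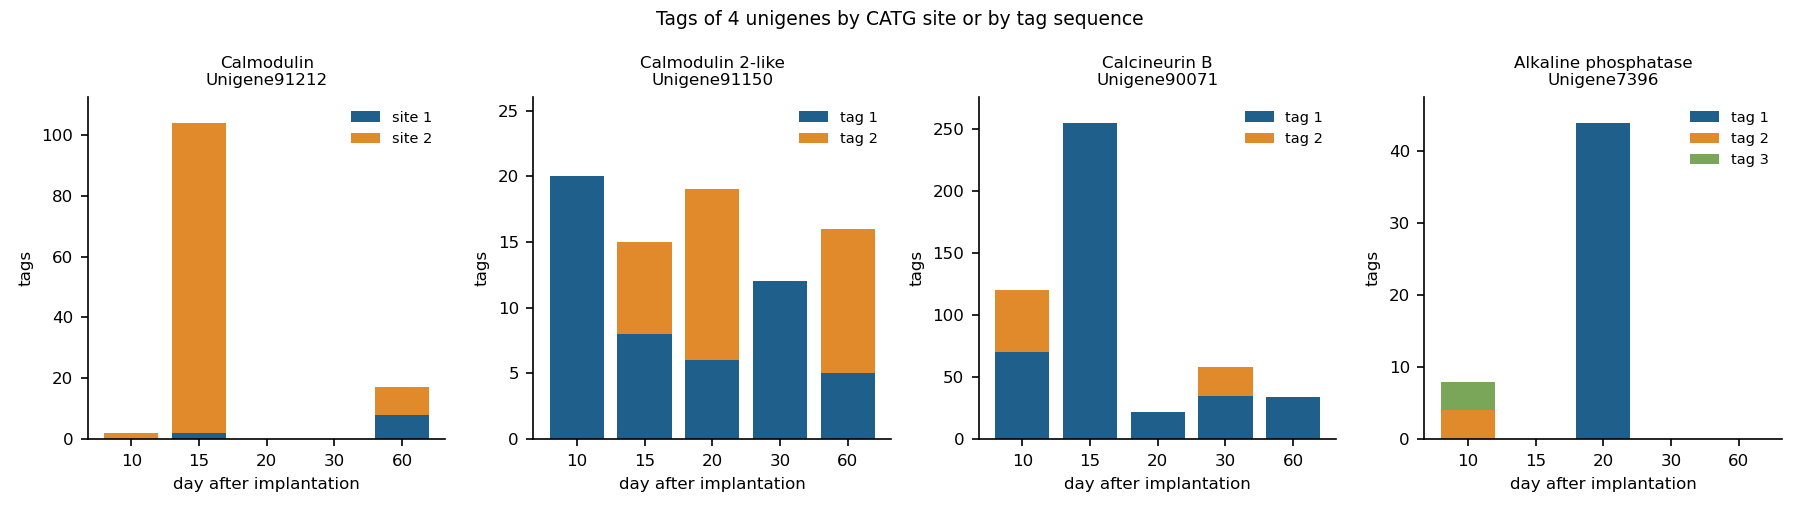
Tag counts by day for calmodulin Unigene91212, divided by CATG site counted from the 3′ end, and for calmodulin 2-like, calcineurin B and alkaline phosphatase, divided by tag sequence at the 3′-most site. The second calcineurin B tag is seen on days 10 and 30 and the second calmodulin 2-like tag on days 15, 20 and 60.

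Such pairs of tags were common in these libraries. Among 950 unigene sites with at least 20 tags in every library, 222 had a second tag 1 base from the first that made up 10% or more of the pooled tags. The intervals of its share did not overlap for 63.1% of the 222 sites between day 15 and day 10 and for 58.6% between day 30 and day 10. Calcineurin B was 1 of 13 sites where the second tag was over 5% on days 10 and 30 and under 1% on the other days. The source of these tag differences was not tested.

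Other genes of calcium handling were taken from 6 lists of patterns over the protein match. Together they held 80 unigenes besides the 8 members, and most were scarce, since 15 to 19 of them reached 1 scaled TPM in a comparison and 3 or 4 reached the minimum of 10. Of the 4 at that minimum in day 15 against day 10, 1 was higher and 1 lower, and the same count was found in day 20 against day 15. In day 30 against day 20 none of 3 was called, and in day 60 against day 30 and against day 10 there were 2 of 4 higher and none lower. In both comparisons of day 60 these 2 were Unigene84692 and Unigene85365, described below. Of all unigenes compared, 44.3%, 52.4%, 38.7%, 30.9% and 33.5% were called in the order of the comparisons. The share higher was 15.7% in day 60 against day 30 and 14.5% in day 60 against day 10. Among unigenes of 1 scaled TPM or more, the list median of the log2 ratio, with counts under 3 set at 3, was 0.67 in day 15 against day 10 and -0.63 in day 20 against day 15, beside 0.06 and -0.21 over all unigenes. In the 3 later comparisons the list medians were 0.14, 0.03 and 0.40.

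The annexins, which bind membranes in the presence of calcium, differed in opposite directions on day 15. Annexin A11-like (Unigene84692) had 6, 402, 7, 11 and 61 tags in order of day. It was 54.2-fold higher on day 15 than on day 10 (24.7 to 148), 44.4-fold lower on day 20 than on day 15 (21.4 to 111) and 4.25-fold higher on day 60 than on day 30 (2.22 to 8.96). Annexin IX-A (Unigene89973) had 379, 176, 356, 380 and 335 tags, 2.66-fold lower on day 15 than on day 10 (2.22 to 3.20) and 2.62-fold higher on day 20 than on day 15 (2.18 to 3.15). These annexin IX-A counts sum over a pair of tags 1 base apart at its 3′-most site. The second tag was 40.5% of 353 tags of the pair on day 20 and 100% of 112 on day 60. It was not listed on days 10, 15 and 30. Ratios of annexin IX-A on 1 tag alone were not examined. The match to protein kinase C substrate 80K-H (Unigene85365), which is the beta subunit of the glucosidase that trims glycoproteins for calreticulin and is not itself a kinase, had 125, 246, 197, 103 and 522 tags. It was 3.89-fold higher on day 60 than on day 30 (3.14 to 4.85) and was not called in the comparison of day 15 with day 10, where calreticulin was higher.

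Of the endoplasmic reticulum list, calumenin a (Unigene62493), a calcium-binding protein of the secretory pathway, came close to the minimum level, with 51 tags on day 15. Days 10, 20 and 30 had 2, 5 and 12 tags, day 60 had none, and the ratio of day 15 to day 10 was 20.6 (5.42 to 175). A peptidyl-prolyl isomerase E match (Unigene57190), caught by the pattern but known from mammals as a nuclear splicing protein, had 75, 99, 37, 60 and 128 tags and was not called in any of the 5 comparisons.

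Calcium channels and pumps were near the limit of detection. A match to an L-type calcium channel (Unigene3910) had 5, 12, 6, 0 and 0 tags in order of day. A plasma membrane calcium ATPase, which pumps calcium out of the cell, had 7 tags on day 15 and 2 on day 60 (Unigene92837). Another unigene with this match (Unigene16372) had 6 tags on day 15 and 3 on day 20. A TRPM3 channel match (Unigene1438) had 4 tags on day 20 and 5 on day 30. Of the calmodulin targets, a calmodulin-dependent kinase type 1 match (Unigene77870) was listed on day 10 alone, with 6 tags, and it was the only one of the 6 unigenes in that list to reach 1 scaled TPM.

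Besides alkaline phosphatase, the list of phosphatases and mineral ion handling had no unigene at the minimum level. Nacrein-like protein M (Unigene62981), a shell matrix protein with a carbonic anhydrase domain, had 15 tags on day 10 and 14 on day 30 and was not listed on days 15, 20 and 60. Carbonic anhydrase 2 (Unigene91832), which forms bicarbonate from carbon dioxide, had 3, 8, 8, 3 and 13 tags. Neither was highest on day 20, where alkaline phosphatase was.

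The profile of each of the 6 members that reached 10 scaled TPM was set against 292 other unigenes of that level with a named match, by the root mean square difference of log2(scaled TPM + 1) over the 5 libraries after centring. Closest to calmodulin Unigene91212 were annexin A11-like (0.437), radial spoke 3 homolog (Unigene73085, 0.536), which regulates ciliary beating, and calreticulin (0.570), where the median over all candidates was 1.68. Closest to calreticulin were glyceraldehyde 3-phosphate dehydrogenase of glycolysis (Unigene36947, 0.296), a match to the RNA methyltransferase IME4 (Unigene92470, 0.318) and radial spoke head 1 homolog (Unigene81707, 0.337), with a median of 1.25. For calcineurin B they were the beta subunit of the electron transfer flavoprotein (Unigene86341, 0.360), a FERM, RhoGEF and pleckstrin domain protein (Unigene92855, 0.374) and Toll9 (Unigene17023, 0.564).

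The other 3 members had other neighbours. For alkaline phosphatase these were matches named CG34145 (Unigene20315, 0.432), AGAP004071-PA (Unigene92121, 0.531) and a Kruppel-like transcription factor (Unigene92331, 0.539). A DEAD box RNA helicase 21 match (Unigene87030, 0.590), GM13604 (Unigene21375, 0.681) and an actin (Unigene60443, 0.705) were closest to the calcium homeostasis protein. The neuronal calcium sensor lay nearest to GH23578-like (Unigene92261, 0.470), AGAP000040-PA (Unigene92473, 0.802) and another actin (Unigene65018, 0.891). Among the members themselves the smallest difference was that of calmodulin Unigene91212 and calreticulin, followed by alkaline phosphatase and the calcium homeostasis protein (0.890). The profiles share libraries and 5 points each, and these values are descriptions.

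Markers of cell types were read from the same libraries. Of 28 unigenes of the pearl sac and mantle epithelium list 24, 11, 11, 14 and 9 were listed in order of day, with summed levels of 568, 89.6, 225, 889 and 83.0 scaled TPM. Tyrosinase-like protein 1 (Unigene1470), of a family of shell pigment and matrix enzymes, gave 1127 of the 2545 tags on day 10 and 2622 of the 3704 on day 30 and was not listed on the other days. Mantle gene 1 (Unigene89281) had 6, 47, 450, 2 and 23 tags in order of day and so was highest on day 20. The sperm and motile cilia list summed to 4.68, 117, 6.07, 5.28 and 14.2 scaled TPM, with 3, 22, 4, 6 and 7 of 25 unigenes listed. It was thus highest on day 15 and next highest on day 60, as was calmodulin Unigene91212. Calreticulin had its highest level on day 15 and the next on day 60. Its days 60 and 10 did not differ beyond counting error (ratio 1.58, 0.755 to 3.49). Axonemal dynein heavy chain 5 (Unigene82585), a ciliary motor, gave 438 of the 651 tags of this list on day 15. Its part in the calmodulin and calreticulin values was not tested.

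The nervous list, read beside the neuronal calcium sensor, summed to 4.01, 2.34, 13.5, 6.72 and 2.76 scaled TPM, with 4, 3, 3, 2 and 2 of 6 unigenes listed. The nervous list had 15 tags on day 60 against 58 on day 20. The sensor had 52 on day 60 against 49 on day 20, levels that did not differ beyond counting error. The digestive gland list of 2 unigenes summed to 22.5, 8.48, 18.2, 3.60 and 2.76 scaled TPM, with 1, 2, 2, 1 and 1 listed, and so was highest on the same 2 days on which alkaline phosphatase was listed. It rested on a pancreatic lipase-related protein (Unigene92137), with 101, 42, 71, 15 and 15 tags. The list sum was higher on day 10 than on day 20, while alkaline phosphatase had 8 tags on day 10 and 44 on day 20. The muscle list summed to at most 6.30 scaled TPM with 2 to 5 of 10 unigenes listed. The egg list of 3 summed to at most 1.92, with none listed on day 15. The hemocyte list of 2 ranged from 26.7 on day 15 to 171 on day 30 and rested on allograft inflammatory factor 1 (Unigene89534), with 1 or 2 unigenes listed. The part of these lists in the levels of the members was not tested.

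**Figure D4:**
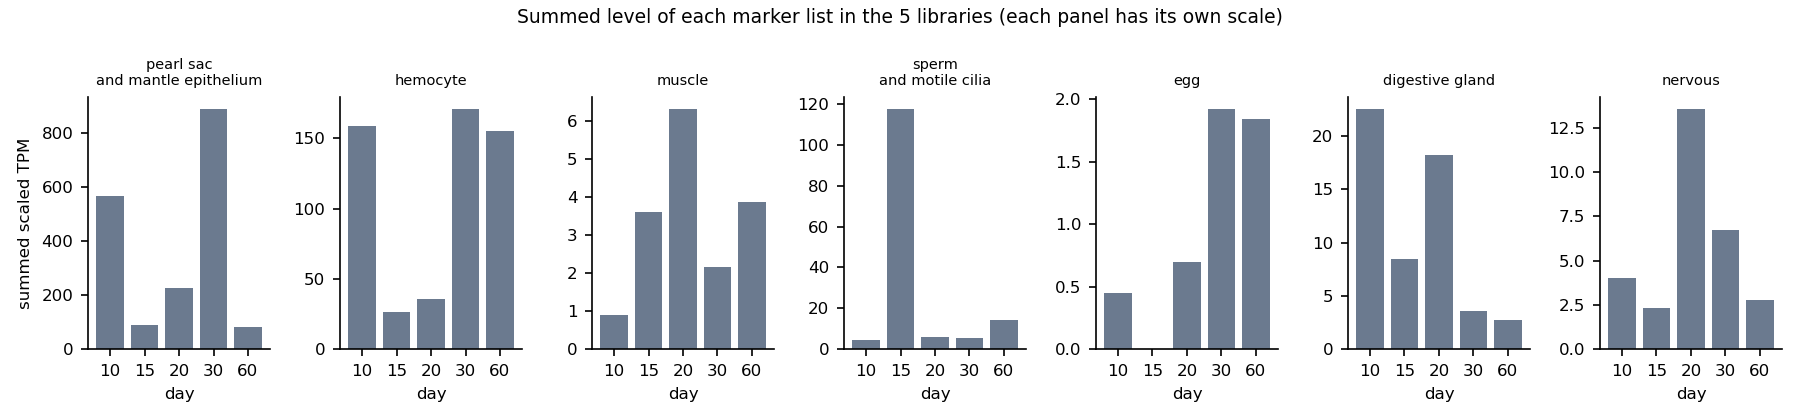
Summed scaled TPM of each marker list by day after implantation, 1 library per day and an own scale in each panel. The sperm and motile cilia list stands highest on day 15 and the epithelium list on days 10 and 30.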

How the data were processed

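Per the file headers, the authors deposited for each library a raw count per unigene, which equals its summed tag copies, and a TPM value that by the values is the count over a library total. Extraction with Trizol and a TruSeq RNA kit is given per the labels' protocols; for the aligner and its settings, the sources used here give no name. Totals were recovered as count over TPM for unigenes of at least 5000 tags. Scaling factors were computed over all 5 libraries by the TMM method (edgeR 4.0.16 under R 4.3.3), with DESeq2 1.42.0 size factors as an alternative. Ratios have Clopper-Pearson intervals conditional on the 2 counts, and single levels exact Poisson intervals (Python 3.11.15, numpy 2.4.6, scipy 1.17.1, matplotlib 3.10.9). The calculation was tested on simulated data. The members and lists were chosen with earlier results of these data known. Of each list the up to 4 unigenes of highest level were eligible to be named, and for each member the 3 nearest profiles. Unigene32477 and Unigene89833, which share a member's match, were added after their values were seen. So was Unigene16372, which shares the match of Unigene92837. Alternatives covered scaling, minimum level, site, fold and tag sequence.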

Additional observations from a re-analysis of the deposited data

How the results depend on the processing

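DESeq2 size factors left the calls of all 37 member ratios as they were, and no called ratio that could be recomputed under the 8 alternatives changed direction. With the 3′-most site alone 35 could be, without calmodulin Unigene91212 in day 15 against day 10 and day 20 against day 15. With the commonest tag sequence alone 35 could be, without alkaline phosphatase in day 15 and day 60 against day 10. A change of direction was not possible under the alternatives of scaling, minimum level and fold. Scaling moved log2 ratios by at most 0.38, while called ratios lay beyond 2-fold, and the minimum and fold left the ratios unchanged. With a minimum of 1 scaled TPM, or with none, 4 members were called in day 15 against day 10, 2 in day 60 against day 30 and 3 in day 60 against day 10, in place of 2, 0 and 1; the counts over all unigenes were 1825, 1961, 1400, 1151 and 1379 in the order of the comparisons, against 739, 857, 593, 471 and 536. With the 3′-most site alone 1 member was called in day 15 against day 10, where 288 of the 1421 unigenes compared were higher and 350 lower. With total tags alone, or with listed tags without the most abundant unigene, the neuronal calcium sensor passed in day 60 against day 30 (1 call), and alkaline phosphatase was called in no comparison. In day 60 against day 30, 373 of 1546 unigenes were higher and 163 lower with total tags alone. With listed tags without the most abundant unigene 373 of 1645 were higher and 177 lower. With the commonest tag sequence alone, chosen after seeing the data, no member was called in day 60 against day 10. There 245 of 1440 unigenes were higher and 297 lower. Total tags alone moved all log2 ratios by 0.29, -0.37, -0.02, 0.37 and 0.27, and the share of higher among called unigenes was 59.5%, 34.8%, 47.7%, 69.6% and 56.0%, against 45.9%, 48.9%, 51.1%, 50.7% and 43.3%. For listed tags without the most abundant unigene this share was 67.8% in day 60 against day 30 and 60.7% in day 60 against day 10. No paired analysis was possible because each day had 1 library. The minimum of 10 scaled TPM kept members under 41.7 to 55.4 tags from being called. Without it 6 of the 37 member ratios gained a call. The intervals of the other ratios that were not called did not lie wholly beyond 2-fold.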

Other observations

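Between libraries, the share of the second tag at the 222 sites with a second tag 1 base apart differed by a median of 17.6 percentage points for day 30 and day 15, the least of the 10 pairs of libraries, and of 42.4 points for day 60 and day 30, the most. Days 30 and 10, which shared the second tag of calcineurin B and lacked that of calmodulin 2-like, differed by a median of 25.9 points over all these sites. Between 53.6% and 68% of the sites had intervals of the share that did not overlap in a pair of libraries. A level summed over tags does not show such differences, and among the members only calreticulin and the neuronal calcium sensor had a single tag sequence in every library in which they were listed.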
